A study of Mus musculus with 2 samples.

Results

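Csnk1a1 and 5 further genes of the beta-catenin destruction complex, Apc, Axin1, Axin2, Gsk3b and Ctnnb1, were selected on the names of the deposited features. Every predicted microRNA site and every enriched Ago2 cluster whose name held one of these whole symbols, in any letter case, was taken. This gave 6 of 15271 genes with predicted sites, 1088 of 1641948 entries of the site table and 12 of 6211 enriched clusters. Csnk1a1 was proposed for its high cluster, so the cluster reads below are a description and carry no test. The 6 genes were measured by iCLIP, which crosslinks a protein to RNA in living cells and sequences the RNA fragments it holds. The protein was human Ago2, the Argonaute that carries microRNAs to their targets.

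Mouse embryonic stem cells made human Ago2 from a doxycycline-inducible transgene as their single Argonaute protein. The line TT-FHAgo2 carried Ago2 with a FLAG-HA tag, and the control line TT-Ago2 carried it without a tag. Both lines are clonal, were kept in 0.1 µg/mL doxycycline and were raised to 2.5 µg/mL for 24 h, so the control shares the induction and the lack of other Argonautes. Each group was 1 library, so the spread between cultures was not measured and no test across samples could be made. Intervals are exact, at 95% (Poisson for reads, Clopper-Pearson for shares), and cover counting error only. PCR copies are not independent molecules, which these intervals leave out. The tagged library held 789000 reads by the unit of its coverage values. The untagged library was used only through the number of reads that the authors' enrichment values imply. Its depth is not stated in the labels or headers. The listed clusters are those enriched over the untagged library, so their low untagged numbers and high ratios follow in part from that selection. All 8 embryonic stem cell markers listed for the check (among them Pou5f1, Nanog and Sox2) were in the site table, at 40.3 to 1655 FPKM. Of the 16 markers of primitive endoderm, trophectoderm, mesoderm, neural cells and fibroblasts, 9 were in the table, at 0.165 to 45.0 FPKM, Vim being the highest. Gata6, Sox17, Pdgfra, Cdx2, T, Col1a1 and Col1a2 had no entry in a table that starts at 0.1 FPKM.

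The destruction complex keeps beta-catenin, the product of Ctnnb1, low in cells that receive no Wnt signal. Axin and Apc are scaffolds that bring beta-catenin to its kinases. Casein kinase 1 alpha (Csnk1a1) phosphorylates beta-catenin first, and glycogen synthase kinase 3 (Gsk3b is the beta isoform) then adds the phosphates that mark it for ubiquitination and decay. When Wnt binds its receptors the complex is inhibited, beta-catenin enters the nucleus, and its target genes, Axin2 among them, are transcribed. In mouse embryonic stem cells, inhibition of glycogen synthase kinase 3 is widely used to sustain self-renewal. Argonaute proteins are guided by the seed of a microRNA, which pairs with a complementary match in the target.

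A part of the microRNAs whose seed matches had reads is printed 5′ to 3′ from RefSeq (GRCm38.p6), with the seed, bases 2 to 8, in capitals. They are shown because the sites printed after them, or matches with reads on Apc, pair with their seeds. Matches of further microRNAs that had reads are named without sequence. The site table holds matches of 50 seeds, called listed seeds here, of which 44 could be named in this way. It also holds 8mer entries that match none of these seeds, and for those no microRNA was named. The first 4 microRNAs printed share the seed AAGUGCU of the embryonic stem cell microRNA clusters. The seed of miR-290a-3p differs from it in the last base.
miR-291a-3p: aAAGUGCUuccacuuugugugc
miR-294-3p: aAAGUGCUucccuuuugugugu
miR-295-3p: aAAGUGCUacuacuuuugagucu
miR-302b-3p: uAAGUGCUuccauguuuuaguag
miR-290a-3p: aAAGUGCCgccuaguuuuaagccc
miR-26a-5p: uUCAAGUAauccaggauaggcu
miR-92a-3p: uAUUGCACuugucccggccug
miR-423-3p: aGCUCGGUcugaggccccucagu
miR-183-5p: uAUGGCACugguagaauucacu
miR-24-3p: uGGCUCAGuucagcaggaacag
miR-370-3p: gCCUGCUGggguggaaccuggu

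A few of the stretches of Gsk3b, Ctnnb1 and Axin1 with reads follow, chosen to show the larger Ctnnb1 cluster, the bases beside the smaller one, overlapping matches, and the 7mers with most reads on Gsk3b and Axin1. Each was read from the deposited names of the sites, on the plus strand of mm9. Capitals mark the matches to a listed seed. Lower case marks the bases between or beside them, here those of an 8mer entry of no listed seed.
Gsk3b 3′ UTR, chr16:38240690-38240702: AGCACTTACTTGA
Gsk3b 3′ UTR, chr16:38242290-38242296: TACTTGA
Ctnnb1 coding sequence, chr9:120860020-120860033: gggcagtaTGCAAT
Ctnnb1 coding sequence, chr9:120860052-120860063: CCGAGCTGCCAT
Ctnnb1 coding sequence, chr9:120864643-120864655: CTGAGCCTGCCAT
Axin1 3′ UTR, chr17:26332653-26332659: CAGCAGG
Axin1 3′ UTR, chr17:26332668-26332674: CTGAGCC

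Ctnnb1, which encodes the substrate of the complex, had the highest expression of the 6 genes, at 171 FPKM for its highest listed isoform, and held 2 clusters with 22 tagged reads against 0 untagged. The larger cluster lay in coding sequence, on chromosome 9 from 120860003 to 120860073 (mm9), with 17 tagged reads (9.90 to 27.2) against 0. The authors gave it p = 7.6294e-06 in a binomial test on the reads of the 2 libraries, which compares those libraries and not replicated conditions. Against a floor of 3 counts per cluster the tagged reads were at least 5.67-fold higher, in a list selected for enrichment. Its most frequent crosslink position, with 4 events, stood 1 nt before the 6mer TGCAAT, the match of the miR-25, miR-32 and miR-92 family, where the site table gave 18 reads. The 6mers CCGAGC (miR-423-3p) and TGCCAT (miR-183-5p) that stand together 25 and 31 nt after the crosslink had 16 reads each. No 7mer or 8mer of a listed seed lay in the cluster. Its other site entries were 8mers of no listed seed, for which no microRNA was named. They were GGGCAGTA with 17 reads, which ends at the crosslink position, GTATGCAA with 18, which spans it, and AGCTGCCA with 16. The smaller cluster, from 120864656 to 120864689, held 5 reads (1.62 to 11.7) against 0, with p = 0.0313 by the authors and at most 1 crosslink event at a position. It begins at the base after CTGAGCCTGCCAT, which joins 7mers of miR-24-3p and miR-484 and a 6mer of miR-183-5p and had 3 to 4 reads. Those matches lie outside the cluster. The only site entry inside it, the 8mer TCTGACCA of no listed seed, had 6 reads. The cluster list places this cluster in the 3′ UTR, while that entry is listed as coding sequence. In Ctnnb1, 35 positions were listed under a pair of regions, according to the isoform.

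Reads were spread along the whole of Ctnnb1 as well as at its clusters. Of 57 matches of a listed seed, 27 had at least 1 read (47.4%, 34.0 to 61.0). Over all genes, not matched for expression, the share was 16.8% in 3′ UTRs, 11.7% in coding sequence and 10.3% in 5′ UTRs. These values are the background for the other members too. In the 3′ UTR 7 of 10 had one, with at most 2 reads each, and in coding sequence 18 of 42. Joining entries with reads that lay within 30 nt gave 27 stretches, of which 15 had a single read and 3 had at least 3. Among listed matches outside the clusters the most reads were 4, at the TGCCAT beside the smaller cluster and at CTGTGA in the 5′ UTR, a 6mer of miR-27a-3p and miR-27b-3p. Relative to expression, the cluster reads of Ctnnb1 were low, 0.128 reads per FPKM, less than in all but 10.8% of the 2613 genes with both a cluster and an expression value, whose median was 0.952.

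**Figure D1:**
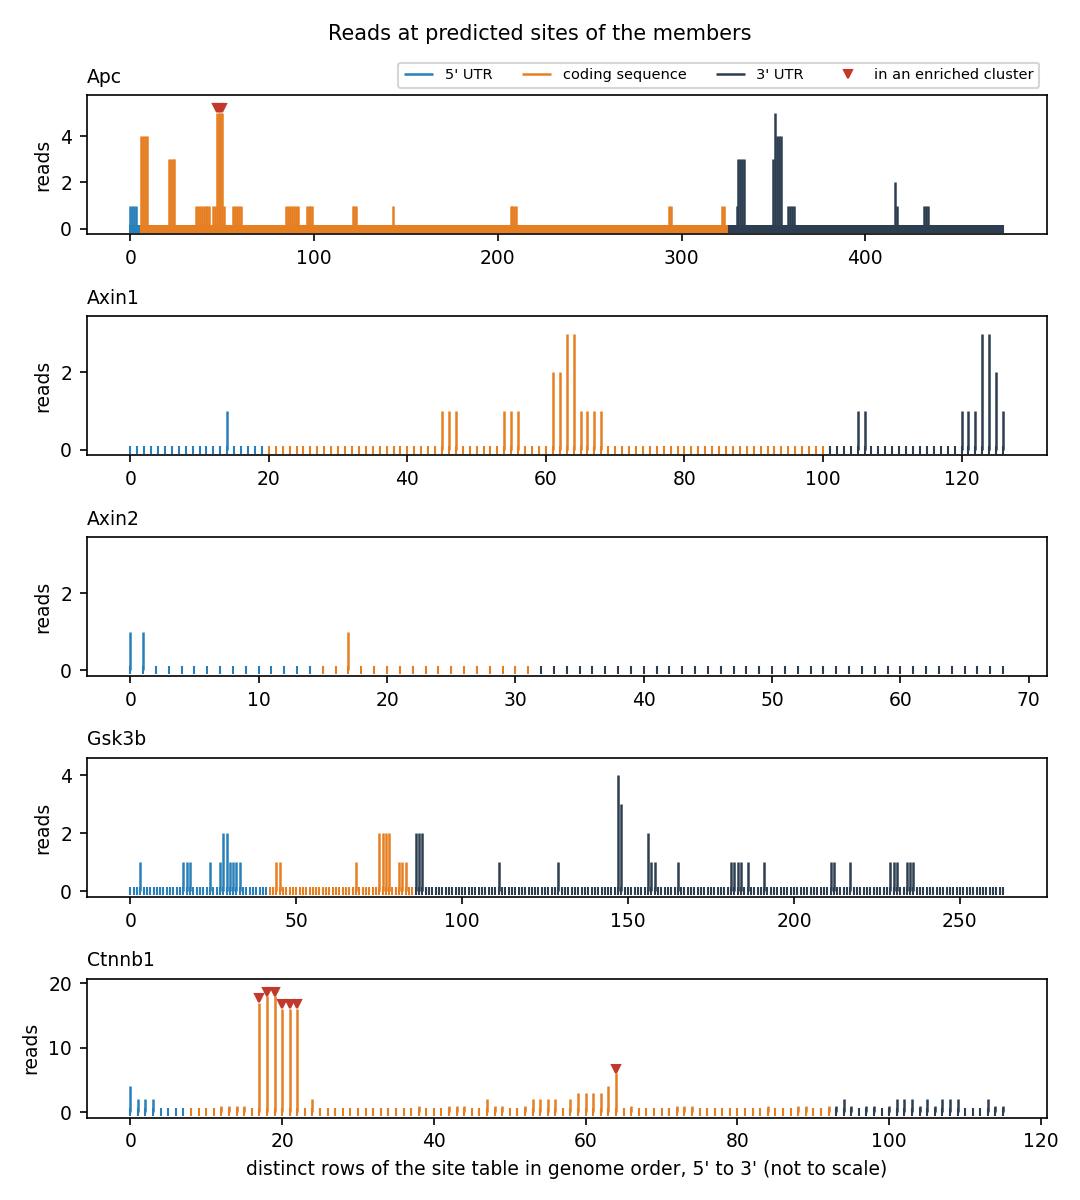
Tagged reads at each distinct entry of the site table for Apc, Axin1, Axin2, Gsk3b and Ctnnb1, in genome order from 5′ to 3′ (x axis, not to scale; y axis, reads). Colours give the listed region and red triangles mark entries in an enriched cluster: Ctnnb1 reaches 18 reads in coding sequence, Apc 5, Gsk3b 4, Axin1 3 and Axin2 1.

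Gsk3b, the kinase that acts after casein kinase 1, had no enriched cluster at 9.73 FPKM. Of all genes with predicted sites, 17.1% had a cluster, and in the decile of expression that holds Gsk3b 23.8% did. Of its 113 listed matches, 24 had a read (21.2%, 14.1 to 29.9). The most reads were 4, at TACTTGA in the 3′ UTR, a 7mer of miR-26a-5p and miR-26b-5p with phastCons 1 (a score of conservation between species, from 0 to 1). The 6mer CTATGA of miR-376b-3p, which follows that match after a gap of 1 nt, had 3 reads. At AGCACTTACTTGA an 8mer of the AAGUGCU family and a 7mer of miR-26 overlap, each with 2 reads, at phastCons 1 and 0.9994. Of its 23 stretches with reads, 17 had a single one. None of these levels reached the smallest cluster of the list, which held 5 reads.

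Axin1, the scaffold that limits the complex in many cells, had no cluster. Its highest listed isoform was at 15.0 FPKM, in a decile where 26.1% of genes had one, while the isoforms that hold its 3′ UTR matches were listed at 3.92 to 6.74 FPKM. Reads were found at 17 of its 69 listed matches (24.6%, 15.1 to 36.5), with at most 3 at a site. In the 3′ UTR 6 of 16 matches had a read. The highest there, with 3 reads each, were CAGCAGG, a 7mer of miR-370-3p at phastCons 0.997, and CTGAGCC, a 7mer of miR-24-3p at 0.415, which stand close together. In coding sequence the 6mers GCACTT and TGCCAA, close together, also had 3 reads.

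Axin2, a scaffold and a target gene of Wnt signalling, was the least expressed member, at 0.820 FPKM, and had no cluster. The share of genes with a cluster at like expression was 6.09%. Of 32 listed matches 2 had a read, each a single one in the 5′ UTR. In the 3′ UTR 0 of 16 had one, which allows a share of up to 18.8% by 3 counts of the total and 20.6% by the exact interval, and in coding sequence 0 of 7. At this depth bound Ago2 on Axin2 could not be told from none.

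Csnk1a1, the priming kinase, held the most tagged reads in clusters of the 6 genes. Its 9 clusters, all on the plus strand of chromosome 18, held 141 tagged reads against 1 untagged, which is 83.9% of the 168 tagged reads in clusters on the members. The highest held 82 reads (65.2 to 102) against 1, over 168 nt of the 3′ UTR from 61749090 to 61749257 (mm9). That is a ratio of 82 with an exact binomial interval of 14.3 to 3278, and the authors gave p = 8.6854e-24. Among all 6211 clusters it ranked 11 by tagged reads and 9 by the authors' p. Its leading crosslink position, base 74 of the cluster, had 14 events, or 17.1% of its reads. The median cluster of the list had 2 events at its leading position, and this one ranked 12 by that number.

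The other 8 clusters on Csnk1a1 were small, with 5 to 11 tagged reads against 0 and 2 to 3 crosslink events at their leading positions. The first stood 1915.5 nt before the centre of the highest. Then came 5 clusters in a row, with 7, 7, 8, 11 and 5 reads, between 61748241 and 61748452, and a further one of 6 reads 541.5 nt before that centre. The last, with 10 reads, stood 591.5 nt after it and was annotated as within 5 kb beyond the gene, while the 8 others were annotated to the 3′ UTR. Some of these neighbours overlapped, by 18 and 21 nt, or touched, so the same reads may count in more than 1 of them, and joined where they met they made 6 separate intervals. Together the 9 clusters spanned 2557 nt. The highest held 58.2% of the reads, 7.45 times as many as the next one. Among clusters of p under 0.01 by the authors, 6 of the 9 remained, with 125 reads. The cluster of 6 reads, which did not pass, ranked 3172 of 6211 by that p, so many clusters of the whole list fail too.

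**Figure D2:**
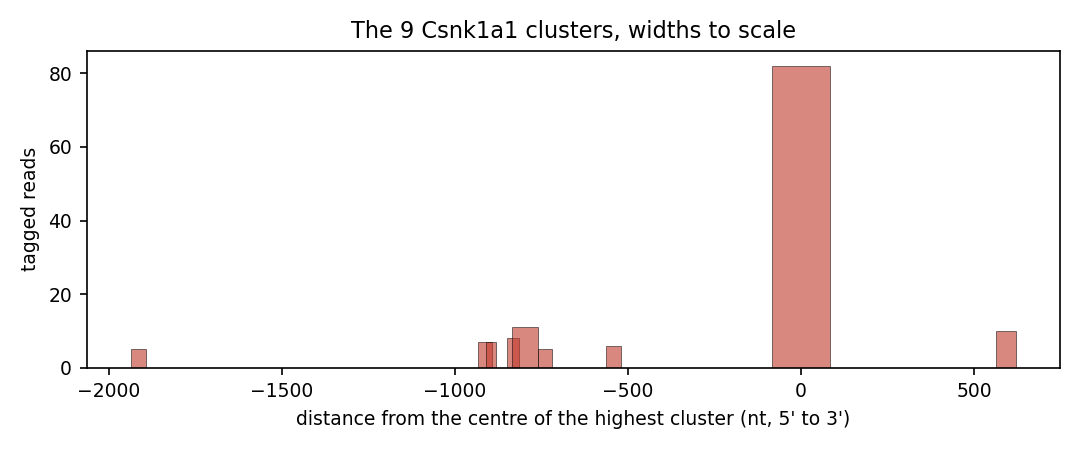
The 9 enriched clusters of Csnk1a1, drawn to scale by distance in nt from the centre of the highest (x axis, 5′ to 3′) and by tagged reads (y axis). The highest stands at 82 reads and the others between 5 and 11, 7 of them before it and 1 after it.

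These clusters could not be set against seed matches. The entries used here hold 1 match for Csnk1a1, a 6mer of miR-335-3p with 1 read, which lay 5497 nt before the first cluster. No entry of any kind lay within the span of the clusters, so which microRNA seeds match there was not analysed here. The expression value of 30.9 FPKM rests on that same entry. With 4.56 cluster reads per FPKM, Csnk1a1 stood above 81.5% of the 2613 genes with a cluster and an expression value.

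Among the 2830 gene names in the cluster list, Csnk1a1 ranked 20 by cluster reads and 44 by number of clusters. The median name had 1 cluster and 11 reads, and 51 names had at least 9 clusters. The 3 genes just above it by cluster reads were Tbx3, with 149 reads in 4 clusters, Cdt1, with 144 in 4, and 4921513D23Rik, with 142 in 5. Just below were D730040F13Rik, with 140 reads in 12 clusters, Sbno1, with 139 in 9, and Ipo7, with 133 in 13. Likeness here is the difference in reads over the 1 tagged library, from 1 to 8 reads, which is within counting error. The share of reads in the highest cluster ranged from 15.0% in Ipo7 to 76.8% in 4921513D23Rik, with 57.0% in Tbx3, a T-box transcription factor, close to that of Csnk1a1. D730040F13Rik and Sbno1 had 21.4% and 28.8%.

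**Figure D3:**
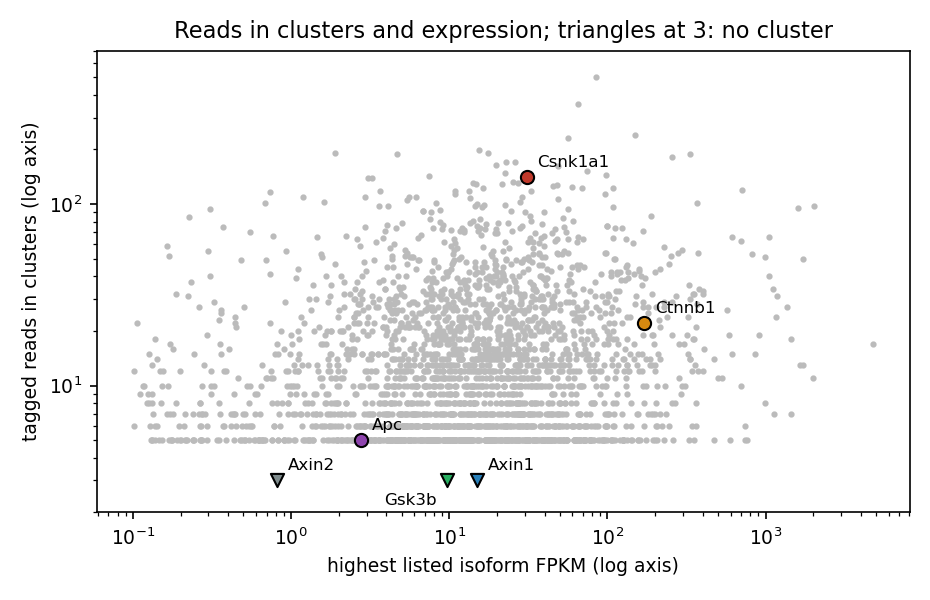
Tagged reads in clusters (y axis, log scale) against the highest listed isoform expression in FPKM (x axis, log scale) for the 2613 genes with both (grey points). Coloured circles mark Csnk1a1 at 141 reads, Ctnnb1 at 22 and Apc at 5, and triangles set at 3 reads mark Gsk3b, Axin1 and Axin2, which had no cluster.

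Apc, the large scaffold that is lost in many colorectal tumours, had 1 small cluster at 2.77 FPKM. It held 5 tagged reads (1.62 to 11.7) against 0 on chromosome 18 from 34471685 to 34471724, with p = 0.0313 by the authors, the lowest read number of any cluster in the list. Of the 3 member clusters with site entries inside, on Apc and Ctnnb1, it was the only one that overlapped a 7mer or 8mer of a listed seed. The share of all clusters with such an overlap is not given here, so this count cannot be called low or high. The match was a 7mer of the AAGUGCU family, 5 nt after a crosslink position with 3 events, and a 6mer of miR-26 overlapped it, starting 8 nt after that position. Both matches had 5 reads, and their phastCons values were 0.9996 and 0.9995. Over the 220 plus-strand clusters of the list that had 1 leading crosslink position, of at least 3 events, and 1 whole 7mer or 8mer of any listed seed, the match started a median of 1 nt after the crosslink (quartiles 0 and 8). The cluster list places this cluster in the 3′ UTR, while the entries inside it are listed as coding sequence.

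Over the whole of Apc, this cluster included, 35 of 185 listed matches had a read (18.9%, 13.5 to 25.3). Entries with reads of any kind, listed or not, made 20 stretches. A stretch in the 3′ UTR, from 34478946 to 34479000, reached 5 reads at a 6mer of miR-290a-5p, miR-292a-5p and miR-293-5p and lay in no enriched cluster. A stretch of coding sequence from 34455723 to 34455756 had 4 reads over a 7mer of miR-293-3p and 6mers of miR-290a-5p and miR-298-5p. A single read was the most in 14 of the 20.

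**Figure D4:**
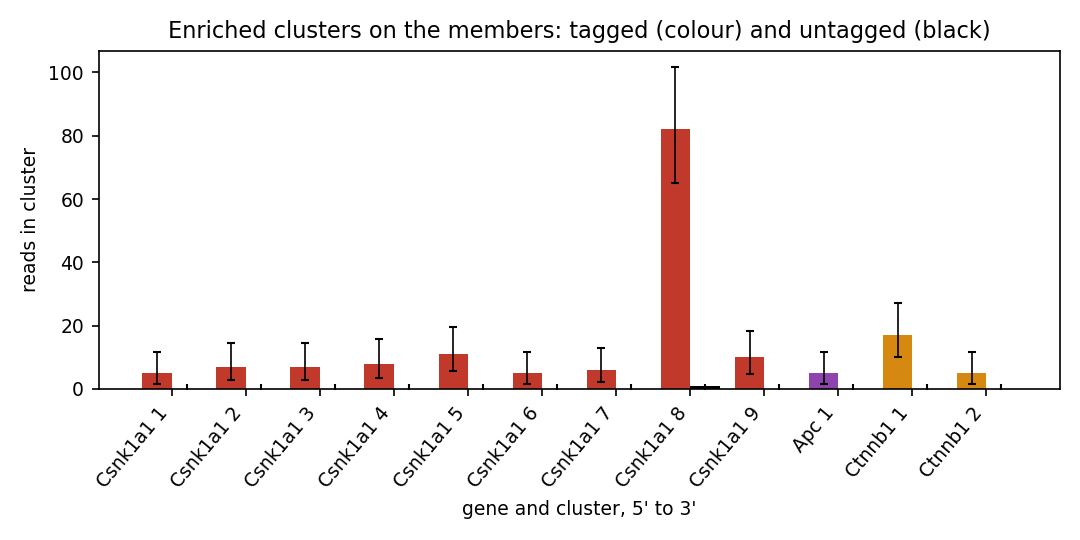
Tagged reads (coloured bars, with exact 95% Poisson intervals) and implied untagged reads (black bars) in each of the 12 enriched clusters on Csnk1a1, Apc and Ctnnb1 (x axis, gene and cluster number from 5′ to 3′; y axis, reads). The eighth Csnk1a1 cluster has 82 reads against 1, and in the other clusters the untagged number is 0.

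Set side by side, 3 of the 6 genes had a cluster. Csnk1a1 is among them and was proposed for its high cluster, so this count is no test against the share of all genes with one. For all genes with predicted sites the share was 17.1%, and it rose with expression, from 3.47% in the lowest decile to 32.6% in the highest. Csnk1a1 and Ctnnb1 lie in the upper 2 deciles, where 30.1% and 32.6% of genes had a cluster, and Apc lies where 15.4% did. Outside Csnk1a1, the members held 27 tagged reads in 3 clusters.

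Across the 6 genes, 106 of 457 matches of a listed seed had at least 1 read. Of 573 further predicted sites on these genes that match no listed seed, 100 had one. The share of such further sites over all genes is not given here, so these counts are not compared. For listed matches of all genes it was 16.8% in 3′ UTRs, 11.7% in coding sequence and 10.3% in 5′ UTRs. Reads at single entries have no untagged number beside them. In 3′ UTRs 39 of 188 listed matches had a read (20.7%, 15.2 to 27.2), beside 16.8% for all genes. The shares of all 3′ UTR matches in the same strata of expression would give 32.1 such matches, so the observed over expected ratio was 1.21 (0.888 to 1.59). The interval holds 1, so at this depth the 3′ UTR share could not be told from that of all genes at like expression. That interval treats matches as independent, though neighbours share reads, so it may be too narrow. Csnk1a1 gives 1 of the 188 matches, outside its clusters, so the ratio says little about that gene. In coding sequence 55 of 222 matches had a read (24.8%, 19.2 to 31.0) beside 11.7% for all genes, and the same ratio was 1.71. Apc gave 24 of the 55, against 10.1 expected (2.38), Ctnnb1 18 against 14.5 (1.24), and Axin1 10 against 5.18 (1.93). Neighbouring matches share reads, so they are not independent, and the coding ratio is given without an interval. The 3′ UTR share was 70.0% in Ctnnb1, 37.5% in Axin1, 19.2% in Gsk3b, 14.9% in Apc and 0% in Axin2, and the intervals of each pair of neighbours in this order overlapped. The isoforms that hold these 3′ UTR matches were listed at 171 FPKM in Ctnnb1, 3.92 to 6.74 in Axin1, 6.39 to 9.73 in Gsk3b, 2.77 in Apc and 0.820 in Axin2. The highest and the lowest share thus stood with the highest and the lowest expression, while Axin1 and Gsk3b stood in the opposite order.

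**Figure D5:**
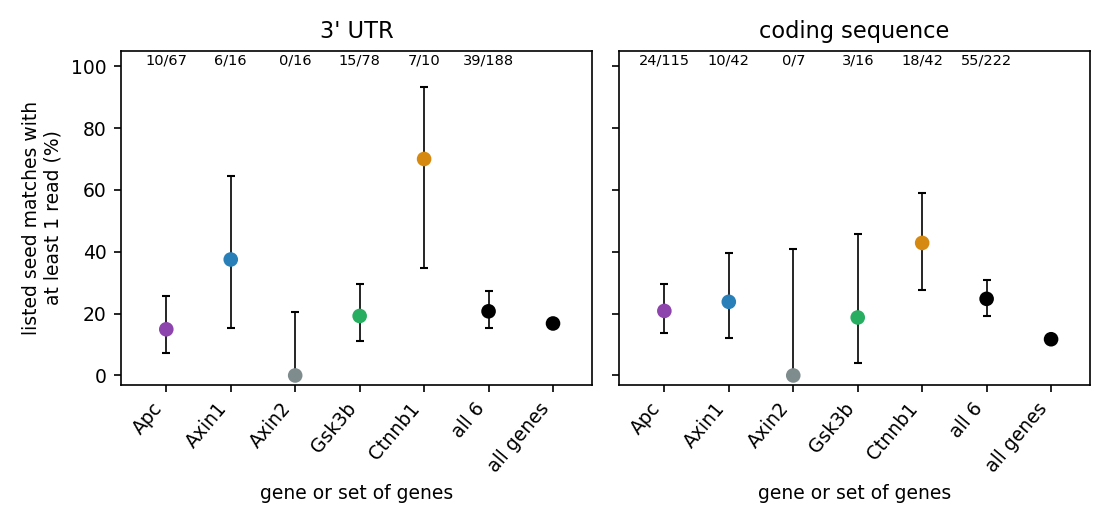
Share of listed seed matches with at least 1 read (y axis, %), with exact 95% binomial intervals, in the 3′ UTR (left) and coding sequence (right). The x axis gives each gene except Csnk1a1, the 6 genes together and all genes, with counts above except for all genes. In the 3′ UTR the 6 genes stand at 20.7% beside 16.8% for all genes, and in coding sequence at 24.8% beside 11.7%.

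The reads fell on matches of 42 of the 48 seed families (groups that share a 6mer). The family GCACTT, which joins the AAGUGCU seed and miR-290a-3p, had reads at 5 of its 6 matches on the members, and is singled out here after its values were seen. Over all genes 35.9% of the matches of this family had a read, the highest share of the 48. On Apc its 7mers had 5, 1 and 0 reads in coding sequence and 2 in the 3′ UTR. Axin1 had 3 reads at a 6mer in coding sequence and Gsk3b 2 at an 8mer in the 3′ UTR. Axin2 and Ctnnb1 had no counted match of this family. Csnk1a1 had none either, but only 1 match was listed for it, so whether its transcript holds one was not analysed. For miR-125a-5p and miR-125b-5p 0 of 7 matches had a read, beside 7.85% over all genes, and for the miR-15 and miR-16 family 4 of 20 did, beside 15.8%. The unnamed family TGCCTT had 8 of 18, with at most 2 reads, beside 12.6%.

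Among matches in the 3′ UTRs of the members, a larger share was conserved where reads were found. Of 39 with a read 79.5% had a phastCons of at least 0.9, and of 149 without one 39.6% did. For all genes these shares were 32.5% and 18.5%. In Apc they were 80% of 10 and 19.3% of 57, in Gsk3b 86.7% of 15 and 60.3% of 63, and in Ctnnb1 every 3′ UTR match passed that score with or without a read. In coding sequence the members differed less, with 87.3% and 79.0%. Neighbouring matches share both reads and conservation, and the position within the 3′ UTR was not compared.

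The other genes of the pathway were taken from a list of 101 genes, of which 80 were in the site table. At least 1 cluster was found on 21 of the 80 (26.2%, 17.0 to 37.3), beside 17.1% for all genes and a mean of 17.5% over the deciles of expression in which the 80 lie. Among further parts and regulators of the destruction complex 7 of 23 had a cluster, among nuclear partners of beta-catenin 7 of 14, among receptors and the factors that turn them over 4 of 16, and among adhesion partners 3 of 5. None of the 11 ligand and export genes in the table, the 3 transducers (Dvl1, Dvl2 and Dvl3) or the 8 inhibitors had one. Their exact intervals reach 28.5%, 70.8% and 36.9%, beside means over their deciles of 5.76%, 23.3% and 12.6%. For complex parts that mean was 23.9% (interval of the observed share 13.2 to 52.9) and for nuclear partners 16.7% (23.0 to 77.0). For receptors and their turnover it was 15.0% (7.27 to 52.4) and for adhesion partners 27.9% (14.7 to 94.7). Wnt7a had a cluster of 7 reads but no entry in the site table. The median expression of these lists differed, at 0.403 FPKM for ligands and export, 1.77 for inhibitors, 5.70 for nuclear partners and 20.1 for complex parts. With p under 0.01 by the authors, 11 of the 80 kept a cluster. The share of all genes at that threshold is not given here, so 17.1% is no comparison for this count.

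By number of clusters Tnks2, a tankyrase that marks axin for decay, came first, with 63 tagged reads against 0 in 5 clusters, beside 141 against 1 on Csnk1a1. The kinase paralogs Csnk1d and Csnk1g1 had 33 against 1 and 27 against 0, each in 4 clusters. Znrf3, a ubiquitin ligase that removes Frizzled receptors, had 30 against 1 in 4 clusters at 1.30 FPKM, all in the 3′ UTR. The co-receptor Lrp6 had 26 against 0 in 3 clusters, with 0 of them in the 3′ UTR. Bcl9, a nuclear co-activator of beta-catenin, had 30 against 0, Jup, its adhesion paralog plakoglobin, had 29 against 1, and Ppp2r5c, a regulatory subunit of protein phosphatase 2A, had 23 against 2, each in 3 clusters. The highest expressed genes of the list without a cluster were Ctnna1 (141 FPKM), which links beta-catenin to actin, the deubiquitinase Usp7 (82.1 FPKM) and the phosphatase genes Ppp2cb (60.2 FPKM), Ppp2ca (44.4 FPKM) and Ppp2r1b (32.1 FPKM). Tcf7l1, the repressive partner of beta-catenin in embryonic stem cells, had none at 31.5 FPKM.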

How the data were processed

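Both lines were treated alike, and the labels describe partial RNase I digestion and serial FLAG and HA precipitation. The submitters' processing notes name TopHat and Bowtie, with neither version nor role, and the builds NCBIM37 and mm9. Neither labels nor headers state the cluster caller or where the expression values come from. Cluster heights are signal, per the file headers, in reads without scaling. For each cluster the authors give reads of the tagged library, a log2 enrichment against the untagged one and p. The untagged number was taken from that log2 (all clusters matched within 0.005), and p matched a binomial test at 0.5 within 0.0001. Its scaling is stated in neither labels nor headers. The authors' rpm values were whole multiples of 1.27 within 0.001 in 100% of entries, so whole reads were used. Isoform expression is FPKM by the authors, and log2 coverage was deposited but not tested. PhastCons is a score deposited with the sites.

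Repeated entries of a site were reduced to that of the highest FPKM, which removed 35 on the members, and 23 matches inside a longer one of the same family were left out. A cluster was set over a match where they shared at least 1 nt on the same strand. Expected numbers used strata of 0.5 log2 FPKM. Functions were tested on simulated data. Coordinates are 1-based on mm9. Python 3.11.15 with pandas 2.3.3, NumPy 2.4.6 and SciPy 1.17.1 was used. The 6 members and the pathway and marker lists were chosen with earlier results of these data known. Named besides the members are the 8 pathway genes with most clusters, the 6 of highest expression without one, and the 3 genes on each side of Csnk1a1 by cluster reads. Group counts name further genes. Alternatives were stricter p, 0 untagged reads, 3′ UTR clusters, other overlaps, at least 2 reads, match types, isoforms and strata. Added after seeing the data were merged clusters, other distances for stretches, coding sequence, and leaving out Ctnnb1, Axin2 or the highest Csnk1a1 cluster. No sequence is printed for Csnk1a1 and Apc.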

Additional observations from a re-analysis of the deposited data

How the results depend on the processing

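Of 35 alternatives, 26 left a count within 1.5 times, or a share or ratio within its 95% interval, and 9 moved it further. With p under 0.01 by the authors, 7 of the 12 clusters remained. Of these, 6 are on Csnk1a1 and have no site entry inside, so the count of 0 over a listed 7mer or 8mer rests on the larger Ctnnb1 cluster. Under the same threshold 11 pathway genes kept a cluster in place of 21. With 0 untagged reads required, or without the highest Csnk1a1 cluster (chosen after seeing the data), the 168 tagged reads became 86. With 6mers counted, or clusters widened by 20 nt, 2 clusters in place of 1 lay over a match. With at least 2 reads required, 9.57% of 3′ UTR matches passed. In coding sequence, added after seeing the data, the observed over expected ratio was 1.71 in place of 1.21, and without Ctnnb1 the 3′ UTR ratio was 1.11. Stricter p, 0 untagged reads and at least 2 reads leave fewer clusters or matches by construction, while 6mers and wider clusters admit more, and for coding sequence the cause was not tested. On the genes without a cluster at most 4 reads fell on a listed match, and other depths were not tested. No paired analysis was possible because each group is 1 library and the labels carry no replicate numbers.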
